A study of Homo sapiens with 8 samples.

Results

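Transcripts of membrane serine proteases and of the Kunitz inhibitors that hold them in check were followed on 8 oligonucleotide arrays of prostate cancer cells. All probe sets annotated to ST14 (matriptase), PRSS8 (prostasin), PRSS22, TMPRSS4, SPINT1, SPINT2 or F2RL1 were taken as members of this group. This gave 9 probe sets for 6 of the 7 genes, out of 54675 probe sets on the array and 19775 genes with a probe set of their own. The annotation used here lists no probe set for F2RL1, so its transcript was not analysed here. Values are log2 units made by the RMA method, in which 1 unit is a 2-fold difference.

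Matriptase is a transmembrane serine protease and prostasin is tethered to the membrane by a lipid anchor, and in epithelia each can activate the other. Both are inhibited at the cell surface by the Kunitz domain proteins HAI-1 and HAI-2, the products of SPINT1 and SPINT2. Matriptase cleaves pro-hepatocyte growth factor, pro-urokinase and the protease-activated receptor encoded by F2RL1, and the balance of protease and inhibitor is known to matter for epithelial barriers and for carcinoma invasion.

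The first comparison concerned PC3-EMT1, PC3-EMT12 and PC3-EMT14. They are untransduced mesenchymal lines that had been isolated for their changed shape after PC3-Epi cells were co-cultured with macrophages, each measured on 1 array, and values of the EMT lines are listed in that order. They were set against PC3-Epi, a luciferase-marked subpopulation of PC3 prostate cancer cells chosen for epithelial morphology, which was measured on 1 array and so has no replicate. In the second comparison, cells of PC3-EMT1 and of PC3-EMT14 carrying a lentiviral shRNA against ZEB1 (sh4) were set against the same lines carrying a scrambled shRNA (Scr), with 1 array for each line and vector and the values of PC3-EMT1 listed before those of PC3-EMT14. ZEB1 is a repressor of epithelial genes. All cells descended from PC3-Epi, were grown in RPMI with serum and gave total RNA. In the first comparison the spread behind the p-values is that between the EMT lines, and PC3-Epi adds none. In the second it is how far the lines differ in sh4 against Scr. With 1 array for each, either spread may be technical. The arrays cover only 1 ZEB1 shRNA sequence, sh4, while the paper also used another, sh2, in these lines.

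The untransduced and transduced arrays had been scaled apart, with array medians of 4.33 to 4.35 and of 6.19 to 6.23, so all comparisons stay within a set. The highest of 27 bacterial control probe sets was taken as the background limit, at 4.56 on the untransduced and 6.00 on the transduced arrays. ZEB1 (212764_at) had 9.12 and 9.01 in sh4 cells, against 9.87 and 10.08 in Scr cells, so this probe set of the targeted transcript was lower with sh4 in both lines. No ZEB1 probe set passed the limma adjusted test for sh4 against Scr. Of the epithelial check genes, CDH1 (201131_s_at) was at least 107-fold lower in EMT lines and at least 12.9-fold higher with sh4, with limma adjusted p-values of 0.000156 and 0.0664. The EMT and Scr arrays were under the background limit, hence the bounds. ESRP1 (225846_at) was at least 96.2-fold lower in EMT lines, and VIM (201426_s_at) differed by 1.91. There 4 of 6 epithelial probe sets tested fell and 5 of 10 mesenchymal ones rose, but KRT8 and KRT18 missed the test (limma adjusted p of 0.106 and 0.109). Of 24 probe sets for macrophage markers, 1, of LAPTM5, lay above the background limit on each untransduced array and 4 to 5 on each transduced array. On the transduced arrays these were drawn from 5 probe sets of 4 marker genes. Those of PTPRC, CD14 and CD163 were under the limit on all arrays. The summed linear level of all 24 was 259 to 263 in EMT lines and 243 in PC3-Epi, and 911 to 920 in sh4 cells and 850 to 937 in Scr cells.

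The proteases ST14 and PRSS8 and the inhibitor SPINT1 fell in the EMT lines, whereas PRSS22 and SPINT2 did not pass the test and TMPRSS4 stayed under the background limit. Of the 9 probe sets, 7 entered the limma fit and 5 fell at an adjusted p under 0.05, all of them 2-fold or more in each of the 3 lines. Among these, ST14 (216905_s_at) and PRSS8 exceeded the background limit only in PC3-Epi, so the filter could admit them only with a fall. No member rose. Among all 27734 probe sets tested, 24.5% passed, 14.6% with a fall and 9.89% with a rise, and 4.71% were 2-fold or more lower and 2.02% higher in all 3 lines. The median difference was -1.31 over the 7 probe sets tested and -1.14 over all 9, against 0.05 over all probe sets tested. In RNA from whole cultures, fewer cells with a transcript and less transcript per cell cannot be told apart.

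**Figure D1:**
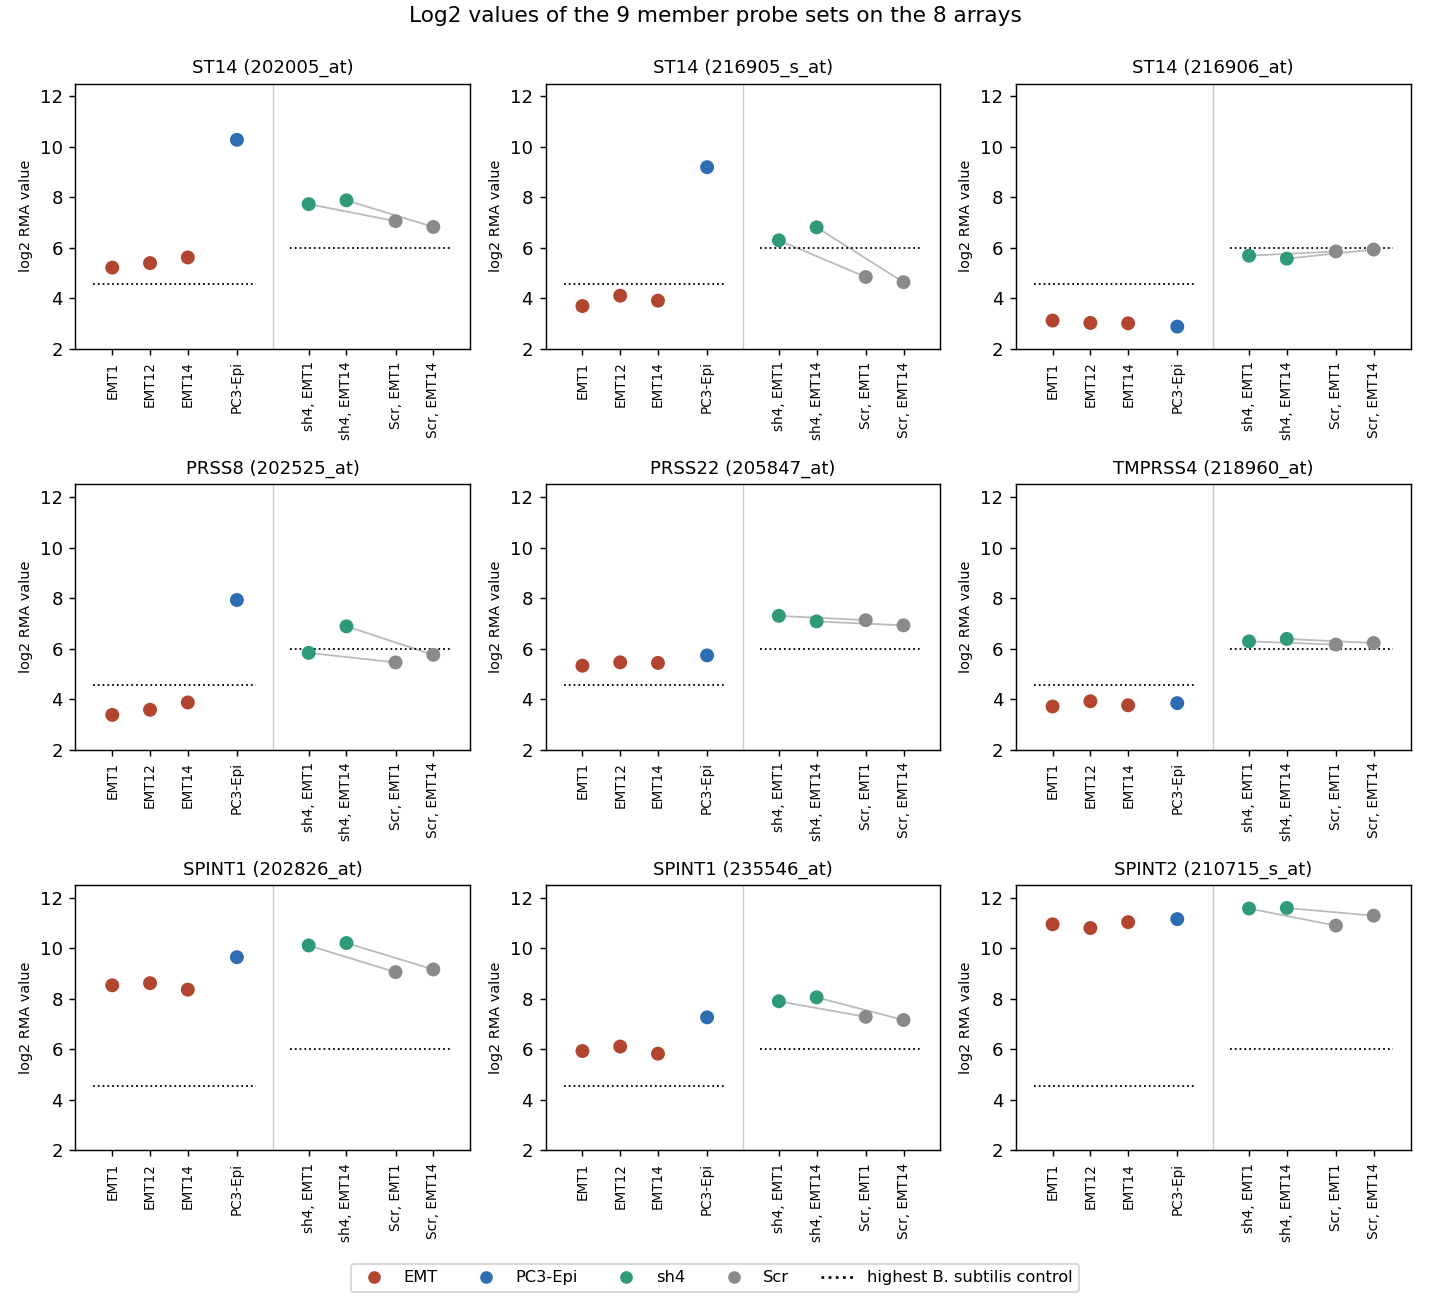
Log2 RMA value (vertical axis) of each member probe set on each of the 8 arrays. Untransduced EMT lines and PC3-Epi stand left of the grey line, sh4 and Scr cells right of it with the 2 arrays of a line joined. The dotted lines mark the highest bacterial control value of each set, 4.56 and 6.00. Both ST14 probe sets with signal, PRSS8 and both SPINT1 probe sets were lower in all 3 EMT lines than in PC3-Epi.

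ST14 lies at chr11:130159782-130210362 (GRCh38.p14) and is represented by 3 probe sets. For 202005_at the values were 5.21, 5.39 and 5.62 in the EMT lines, against 10.27 in PC3-Epi. The difference was -4.87 ± 0.19 (SE, 95% interval -5.34 to -4.40, limma adjusted p = 0.000112), a 29.2-fold fall. All 3 EMT lines lay far below PC3-Epi but still above the background limit.

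The ST14 probe set 216905_s_at gave 3.69, 4.10 and 3.90 in the EMT lines, against 9.19 in PC3-Epi. Every EMT array was under the background limit, so the fall is given as at least 24.7-fold, with a fitted difference of -5.29 ± 0.20 (SE, limma adjusted p = 0.000106). The remaining probe set, 216906_at, read 3.12, 3.02 and 3.00 in EMT lines and 2.88 in PC3-Epi, all under the limit, and was not tested. It carried no information on the direction of ST14.

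PRSS8, at chr16:31131433-31135727, followed the same course. Its probe set 202525_at had 3.37, 3.57 and 3.86 in the EMT lines, against 7.92 in PC3-Epi. The EMT lines were all under the background limit, which makes the fall at least 10.3-fold. The fitted difference was -4.32 ± 0.22 (SE, 95% interval -4.84 to -3.80, limma adjusted p = 0.00022), as measured.

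PRSS22, a tryptase-like serine protease at chr16:2852730-2858170, had 5.32, 5.45 and 5.43 in the EMT lines, against 5.73 in PC3-Epi. The 3 lines were slightly lower, but the difference of -0.33 ± 0.15 (SE, 95% interval -0.69 to 0.04) did not pass (limma adjusted p = 0.159). TMPRSS4, another transmembrane serine protease, at chr11:118077078-118125505, had 3.71, 3.91 and 3.75 in EMT lines and 3.84 in PC3-Epi. The groups overlapped and every array was under the background limit, so a difference could not be detected at this signal.

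The inhibitor SPINT1, at chr15:40844048-40858207, fell less far than ST14 and PRSS8. Its probe set 202826_at had 8.54, 8.62 and 8.37 in the EMT lines, against 9.65 in PC3-Epi, a difference of -1.14 ± 0.17 (SE, 95% interval -1.55 to -0.74, limma adjusted p = 0.00765). The second SPINT1 probe set, 235546_at, had 5.94, 6.11 and 5.83 in EMT lines, against 7.27 in PC3-Epi, a difference of -1.31 ± 0.17 (SE, limma adjusted p = 0.00542). Both probe sets stayed well above the background limit on every array, and PC3-EMT14 was the lowest line in each.

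SPINT2, which encodes the other inhibitor and lies at chr19:38264573-38292615, had 10.96, 10.81 and 11.04 in the EMT lines, against 11.16 in PC3-Epi. All 3 lines were a little lower than PC3-Epi. The difference of -0.23 ± 0.16 (SE) missed the threshold (limma adjusted p = 0.336), and its 95% interval of -0.62 to 0.17 does not reach the size of the SPINT1 difference.

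Protease and inhibitor were also compared within each line, as the change of one minus the change of the other. The change of ST14 minus that of SPINT1 was -3.95, -3.86 and -3.37 in the EMT lines, and that of ST14 minus that of SPINT2 was -4.86, -4.53 and -4.54. ST14 (202005_at) thus changed by more than either inhibitor (202826_at, 210715_s_at) in all 3 lines, though these differences were not tested and all share the 1 PC3-Epi array.

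**Figure D2:**
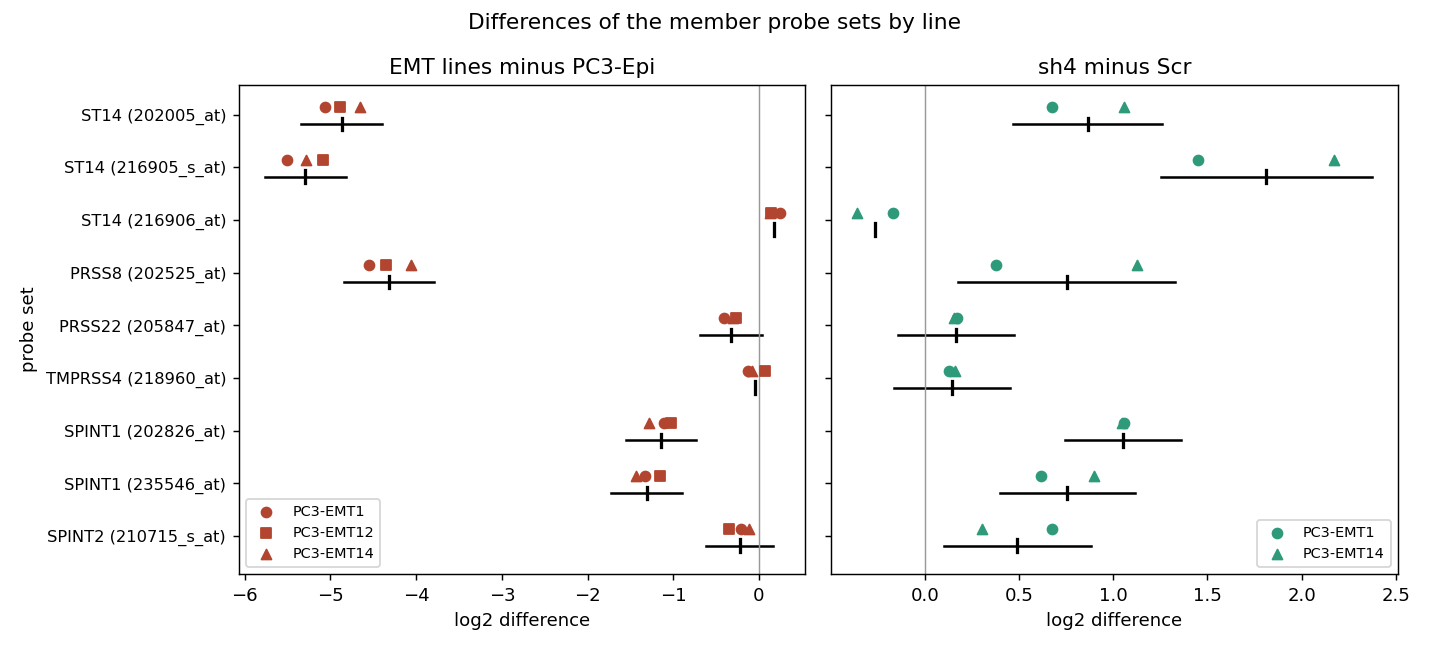
Log2 differences (horizontal axes) of the member probe sets (vertical axis), for the EMT lines minus PC3-Epi on the left and sh4 minus Scr on the right, on scales of their own. Symbols are single lines, upright ticks the mean and horizontal bars the unadjusted 95% interval from limma, drawn only for probe sets that were tested. On the left 202005_at and 216905_s_at of ST14 and PRSS8 lie, as measured, between -5.50 and -4.06 and SPINT1 between -1.44 and -1.03, and on the right the points of 8 of the 9 probe sets lie above 0.

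With the ZEB1 shRNA, ST14, PRSS8, SPINT1 and SPINT2 had higher values than with the scrambled shRNA in both lines, but no member passed the adjusted test. Of the 9 member probe sets, 8 were tested and 0 passed at an adjusted p under 0.05 in limma, as did 0% of all 31363 probe sets tested. At an unadjusted p under 0.05 there were 6 members, all higher with sh4, beside 4521 of all probe sets (14.4%), of which 1888 (6.02%) were higher. Of these members, PRSS8 and ST14 (216905_s_at) exceeded the background limit only in sh4 arrays, so the filter favoured a higher value with sh4. As measured, 2 members, SPINT1 (202826_at) and ST14 (216905_s_at), had a 2-fold or larger excess in both lines, against 0.226% of all probe sets, but for this ST14 probe set both Scr arrays lay under the background limit, so a 2-fold excess was not established. A deficit of that size was seen for 0 members, against 0.14%. Values were higher in both lines, at any size, for 8 of the 9 probe sets and for 30.8% of all. The members' median difference was 0.75, or 0.52 with probe sets under the limit in all Scr arrays set to their bound, beside -0.01 over all probe sets tested.

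ST14 (202005_at) had 7.73 and 7.88 in sh4 cells, against 7.05 and 6.82 in Scr cells. The sh4 and Scr values did not overlap, and the difference was 0.86 ± 0.15 (SE, unadjusted 95% interval 0.47 to 1.26, limma adjusted p = 0.256). For 216905_s_at the sh4 cells had 6.29 and 6.81, against 4.84 and 4.63 in Scr cells. Both Scr arrays were under the background limit and both sh4 arrays above it, which gives at least a 1.46-fold excess. The measured difference was 1.81 ± 0.21 (SE, limma adjusted p = 0.213). The dim probe set 216906_at had 5.69 and 5.57 in sh4 cells and 5.85 and 5.93 in Scr cells, all under the limit.

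PRSS8, the protease paired with matriptase, stood near the background limit. It had 5.83 in PC3-EMT1 and 6.88 in PC3-EMT14 with sh4, against 5.45 and 5.75 with Scr, so that only the sh4 array of PC3-EMT14 lay above the background limit. The difference was 0.38 in PC3-EMT1 and 1.13 in PC3-EMT14, with a mean of 0.75 ± 0.21 (SE, limma adjusted p = 0.303). The bound of 1.28-fold takes the sh4 value of PC3-EMT1 as measured, although that array was under the limit too. In PC3-EMT1 no excess could be bounded. Without the sh4 array of PC3-EMT14 the difference was 0.23 and without that of PC3-EMT1 it was 1.28, in fits of 3 arrays without the line block.

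Among the other proteases, PRSS22 had 7.30 and 7.08 in sh4 cells, against 7.12 and 6.92 in Scr cells. Within each line the sh4 value was slightly higher, by 0.17 and 0.16, and the difference of 0.16 ± 0.11 (SE, 95% interval -0.14 to 0.47) did not pass (limma adjusted p = 0.538). TMPRSS4 had 6.29 and 6.38 in sh4 cells and 6.16 and 6.22 in Scr cells, just above the background limit. Its difference of 0.14 ± 0.11 (SE) did not pass either (limma adjusted p = 0.585).

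Both SPINT1 probe sets were higher with sh4 in each line. The brighter one, 202826_at, had 10.12 and 10.21 in sh4 cells, against 9.06 and 9.17 in Scr cells, or differences of 1.06 and 1.05. The mean was 1.05 ± 0.11 (SE, unadjusted 95% interval 0.74 to 1.36, limma adjusted p = 0.205). The probe set 235546_at had 7.91 and 8.06 in sh4 cells, against 7.29 and 7.16 in Scr cells, a difference of 0.76 ± 0.13 (SE, limma adjusted p = 0.256). The groups did not overlap in either probe set.

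SPINT2 had 11.58 and 11.60 in sh4 cells, against 10.90 and 11.30 in Scr cells. The sh4 values were nearly equal while the Scr values lay apart, and the difference of 0.49 ± 0.14 (SE, unadjusted 95% interval 0.10 to 0.88) did not pass (limma adjusted p = 0.309). The difference was 0.29 without the Scr array of PC3-EMT1 and 0.69 without that of PC3-EMT14, in fits of 3 arrays without the line block.

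Where the 6 untransduced and transduced arrays of these lines were fitted together with the line as a replicate block, 2 member probe sets passed for sh4 against Scr. These were ST14 (216905_s_at, limma adjusted p = 0.011) and SPINT1 (202826_at, limma adjusted p = 0.0254). For this ST14 probe set the Scr arrays, and the EMT arrays added to the fit, lay under their background limits. The filter thus favoured a higher value with sh4, and part of its spread came from values under the limit. That fit takes part of its spread from arrays of the other scaling. In it 2 of the 8 members tested passed, beside 228 of all 31363 probe sets tested (0.727%), against 0 with the transduced arrays alone. ST14 (202005_at) and PRSS8 had adjusted p-values of 0.0715 and 0.115 in it.

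**Figure D3:**
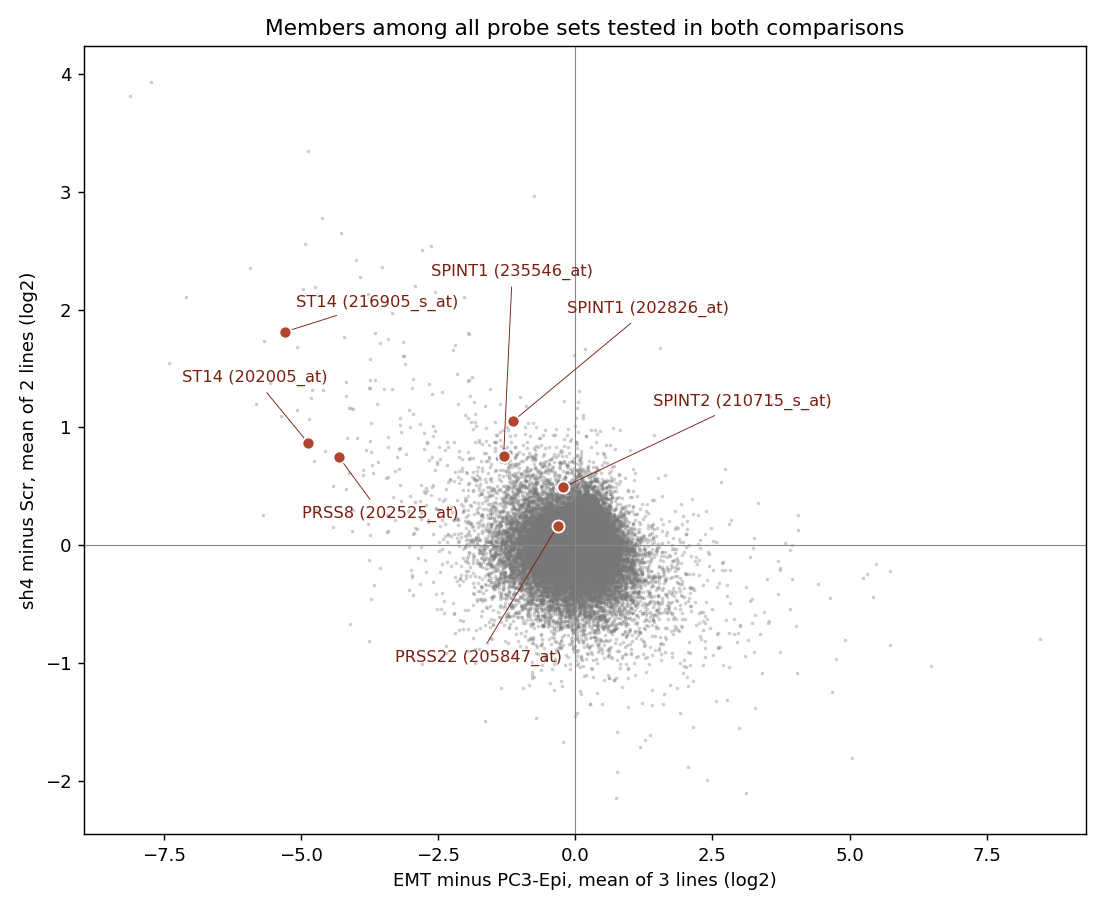
Mean log2 difference of the EMT lines from PC3-Epi (horizontal axis) against the mean log2 difference of sh4 from Scr (vertical axis) for the 26601 probe sets tested in both comparisons. Grey points are all probe sets and red points the 7 member probe sets tested in both. The ST14, PRSS8, SPINT1, SPINT2 and PRSS22 points all lie in the upper left quadrant, with ST14 (216905_s_at) farthest out at measured differences of -5.29 and 1.81, although its EMT and Scr arrays were under the background limit.

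The 2 comparisons share no array. As measured, both ST14 probe sets with signal and both SPINT1 probe sets were 2-fold or more lower in all 3 EMT lines and 1.5-fold or more higher with sh4 in both lines, that is 4 of the 7 member probe sets tested in both. For ST14 (216905_s_at) the second condition rested on Scr values under the background limit, and its bound of 1.46-fold does not reach it. As measured, 140 of 26601 probe sets (0.526%) met both conditions. PRSS8 missed this rule through PC3-EMT1, where its sh4 difference was 0.38. Levels in sh4 cells cannot be set against PC3-Epi because the sets were scaled apart.

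The CAGGTG core bound by ZEB1 was sought in the promoter windows, from 250 bases before to 50 after each RefSeq transcript start (GRCh38.p14), on both strands, so CACCTG also counts. Of the 7 genes, SPINT1 and F2RL1 matched an entry, with 3 windows between them, and 2 of the 3 held the letters, beside 20.6% of all 35116 windows. For SPINT1, the inhibitor with the larger difference in both comparisons, the stretch at chr15:40844439-40844468 on the plus strand is shown with the CAGGTG in capitals. It lies 26 to 21 bases before 1 of the 2 SPINT1 starts, and the window of the other start holds no match.
SPINT1: tcccgggctgatCAGGTGtgtctcctcctc
The letters are a description of the sequence and binding was not measured here.

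The genes most like each member were those with the smallest root mean square distance in log2 units over the 5 within-set differences (3 EMT lines, 2 sh4 comparisons). The brightest probe set of each member was compared with 22780 probe sets, and each other gene counted by its closest probe set. For ST14 they were CNTNAP2 (0.18), ATP2C2 (0.24) and FXYD3 (0.27), and for PRSS8 they were BSPRY (0.20), AKR1B10 (0.32) and CNTNAP2 again (0.38), as measured, since PRSS8 was under the background limit in EMT lines. SPINT1 lay nearest to UGCG (0.19), MOXD1 (0.22) and, through its probe set 226553_at, TMPRSS2 (0.23), the last a transmembrane serine protease itself. SPINT2 lay nearest to PKP3 (0.06), SLC7A1 (0.08) and TRIO (0.10), all with small differences. PRSS22 lay nearest to STX3, CCDC88C and MMGT1, and TMPRSS4 to SNRNP200, RBBP7 and STK25. Small distances among genes that hardly moved say little.

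Other genes of the pathway were taken from lists, and in the EMT lines they went in both directions. The counts for these lists stand beside 14.6% of all 27734 probe sets tested that passed with a fall and 9.89% with a rise. Whether a list departs from those shares was not tested. Of 12 tested probe sets of other transmembrane serine proteases, 2 fell, both of TMPRSS2, and none rose. TMPRSS2 (226553_at) had 5.72, 5.82 and 6.03 in the EMT lines, against 6.95 in PC3-Epi, and its probe set 211689_s_at, under the background limit on all EMT arrays, was at least 1.79-fold lower (limma adjusted p = 0.0046). Another TMPRSS2 probe set, 205102_at, was higher in all 3 lines without passing (limma adjusted p = 0.173), so the probe sets of this gene disagreed. The list's median difference was 0.19. Of 5 tested probe sets of other membrane-anchored or tryptase-like proteases, 2 rose. Both were of PRSS3, a trypsinogen and so not strictly of this class, with a difference of 1.12 for 207463_x_at (limma adjusted p = 0.00597). The PRSS3 sequence is close to that of PRSS2 and the probe sets may share signal. No other tested probe set of this list passed.

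None of the other Kunitz domain genes passed the test with a fall, and 4 had at least 1 probe set that rose. Of 21 probe sets tested, 6 rose and 0 fell, at a median difference of 0.18. TFPI, the tissue factor pathway inhibitor, differed by 1.86 ± 0.29 (210665_at), and TFPI2, a related inhibitor, by 1.85 ± 0.16 (209278_s_at), each with its SE and limma adjusted p-values of 0.00904 and 0.00134. COL6A3, a collagen chain with a Kunitz domain, differed by 1.30 (201438_at), and APLP2, an amyloid precursor-like protein, by 0.58 (228520_s_at), with limma adjusted p-values of 0.0133 and 0.0456. The APLP2 probe sets disagreed, since the others did not pass and 208701_at, 208702_x_at, 211404_s_at and 214875_x_at had differences of -0.51 to -0.41. TFPI (213258_at) also missed the threshold, at 0.18. TFPI2 had 12.04, 12.09 and 12.22 in the EMT lines, against 10.27 in PC3-Epi, and the lines did not overlap with PC3-Epi.

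Among substrates of matriptase and prostasin and the receptors of those substrates, 5 of 22 probe sets fell and 7 rose. EPCAM, an epithelial adhesion protein cleaved by matriptase, had 9.16, 9.80 and 9.58 in the EMT lines, against 12.86 in PC3-Epi, a difference of -3.35 ± 0.26 (SE, limma adjusted p = 0.000946). MET, the receptor of hepatocyte growth factor, differed by -1.10 (213816_s_at, limma adjusted p = 0.0458) and by -0.71 (213807_x_at, limma adjusted p = 0.0491). Its probe sets 203510_at and 211599_x_at were also lower in all 3 lines but missed the threshold (limma adjusted p of 0.0857 and 0.098). SCNN1B, a subunit of the epithelial sodium channel, differed by 1.18 (limma adjusted p = 0.0172), with 4.67 in PC3-Epi, just above the background limit. SCNN1A, another subunit, differed by -0.82 at 203453_at (limma adjusted p = 0.0307), while its 215026_x_at and 217264_s_at were higher without passing. PLAUR, the urokinase receptor, differed by 1.12 (211924_s_at, limma adjusted p = 0.0132).

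Of the other protease-activated receptors, F2R, the thrombin receptor, gave the 2 probe sets that could be tested. F2R (203989_x_at) had 8.77, 9.21 and 8.71 in the EMT lines, against 7.31 in PC3-Epi, a difference of 1.58 ± 0.23 (SE, limma adjusted p = 0.00759). Its other probe set, 1569642_at, differed by 0.59 without passing (limma adjusted p = 0.0841).

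Of 11 tested probe sets of secreted proteases known to cleave the F2RL1 receptor, and of the cofactor F3, 3 fell and 2 rose. The kallikrein KLK6 had 4.72, 4.89 and 5.75 in the EMT lines, against 9.84 in PC3-Epi, a difference of -4.73 ± 0.39 (SE, limma adjusted p = 0.0012). KLK5, another kallikrein, had 4.84, 4.14 and 5.42, against 8.13 in PC3-Epi (limma adjusted p = 0.00565). F3, tissue factor, was at least 1.83-fold lower (limma adjusted p = 0.00771), with all 3 EMT arrays under the background limit. PRSS2, a trypsinogen close in sequence to PRSS3, differed by 1.06 (205402_x_at, limma adjusted p = 0.00606). In sh4 against Scr, 0 probe sets of any of these lists passed the adjusted test.

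**Figure D4:**
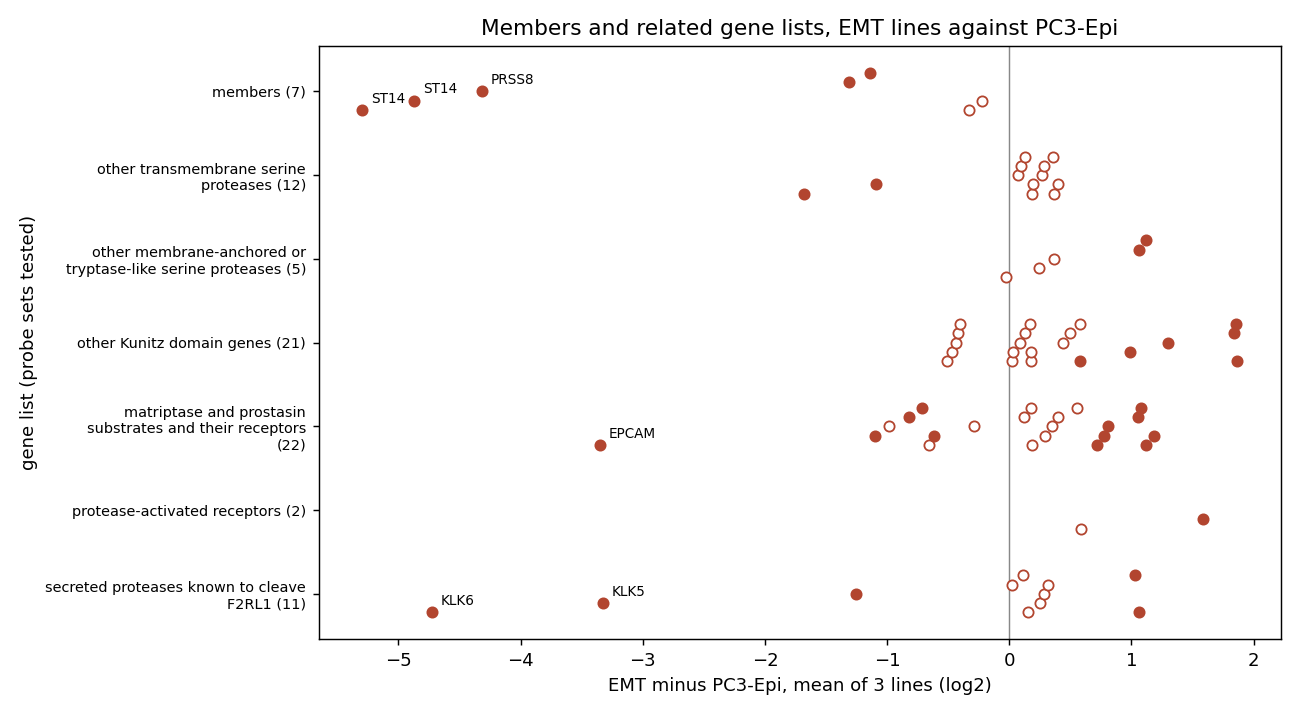
Mean measured log2 difference of the EMT lines from PC3-Epi (horizontal axis) for each tested probe set of the members and of 6 related lists (rows, with the number tested). Filled circles passed at a limma adjusted p under 0.05, open circles did not, the height within a row only separates points, and passing probe sets beyond 3 log2 units are named. The members' 5 filled circles all lie below 0, whereas the 6 filled circles of the other Kunitz domain genes all lie above 0. ST14 (216905_s_at) and PRSS8 exceeded the background limit only in PC3-Epi, which fixed their direction.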

How the data were processed

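Each of the 8 samples was hybridised to 1 Affymetrix human array of 54675 probe sets. The deposited log2 values had been made by the authors with RMA in the affy package (versions not given in the sources used here) and were used unchanged. Array number and signal over background, not read depth, limit the precision.

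Of the probe sets, 62 were controls, 41091 had 1 gene symbol, 1801 several and 11721 none, and 41037 of those with 1 symbol matched the RefSeq gene table by Entrez number. Positions and promoter sequences are from RefSeq, GRCh38.p14. A probe set entered a comparison if at least 1 of its arrays exceeded the highest of 27 Bacillus subtilis control probe sets.

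Differences were fitted in R 4.3.3 with limma 3.58.1 (lmFit, eBayes), with Benjamini-Hochberg adjustment over all probe sets tested and a threshold of 0.05. EMT against PC3-Epi used the 4 untransduced arrays by group (2 residual degrees of freedom, prior 4.30), and PC3-Epi borrowed the spread of the EMT lines. sh4 against Scr used the 4 transduced arrays with the line as a block (1 residual degree of freedom, prior 3.31). The cell line label pairs sh4 with Scr, and the deviations of line 1 in sh4 and Scr correlated at r = 0.43 over 31363 probe sets, which are not independent replicates. Where a whole group lay at or under the control limit, the fold is a bound against the higher of that limit and the array's own value.

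The members and gene lists were chosen with earlier results of these data known. Named genes are all members, up to 4 passing genes per list and comparison by size of difference, the 3 nearest genes to each member and the check genes ZEB1, CDH1, ESRP1 and VIM. SCNN1A was added beside SCNN1B. The fits were also run on simulated data with noise drawn from limma's own variance prior and the same spread on every array. Such data cannot check the use of an unreplicated PC3-Epi array. Alternatives covered the filter, normalization, added constant, gene summary, variance prior, block and each array left out except that of PC3-Epi.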

Additional observations from a re-analysis of the deposited data

Results flagged for a closer look

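Among the related genes named, 6 had sh4 minus Scr differences of opposite sign in PC3-EMT1 and PC3-EMT14, each from 1 array per line and vector, and the difference between lines was not tested. F2R (203989_x_at) differed by -1.18 in PC3-EMT1 and 0.23 in PC3-EMT14, with 9.70 and 9.41 in sh4 cells against 10.87 and 9.18 in Scr cells. COL6A3 differed by 0.0824 and -0.86, TFPI by 0.0874 and -0.41, TFPI2 by 0.16 and -0.42, APLP2 by -0.27 and 0.17, and SCNN1B by -0.0202 and 0.0418, in each case with PC3-EMT1 before PC3-EMT14.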

How the results depend on the processing

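For EMT against PC3-Epi, all 93 member values under the alternatives run kept their direction and their side of the threshold. For sh4 against Scr, 127 did and 2 passed the threshold, both in the fit with the replicate block on 6 arrays of both sets, and no other choice moved a member across it. Over all probe sets, 6787 passed for EMT against PC3-Epi, but 3560 with 1 probe set per gene and 3361 with each gene's probe sets averaged, where fewer units are tested, and between 3219 (without PC3-EMT14) and 9029 (without PC3-EMT12) when an EMT line was left out. For sh4 against Scr, 0 passed with the replicate block, against 1 without the block, 228 with the replicate block on 6 arrays, 6 with a filter at log2 7, 4 with 1 probe set per gene, 27 with each gene's probe sets averaged, 31 after quantile normalization, 10 after cyclic loess, 47 after median centring, 2 with a trend in eBayes, and 0 to 0 with 1 array left out and no block. The cause of these changes was not tested. Probe sets 2-fold or more apart from PC3-Epi with 1 sign in all 3 EMT lines numbered 1866, with 5134 at 1.5-fold and 680 at 3-fold, and for sh4 against Scr in both lines it was 115, with 608 and 30. Leaving out 1 line kept ST14 (202005_at) between -4.97 and -4.77 and SPINT1 (202826_at) between -1.20 and -1.07 for EMT against PC3-Epi. The single PC3-Epi array was in every fit of that comparison, so dependence on it was not examined. Signals under the control limit leave TMPRSS4 in the untransduced set, and the size of the PRSS8 and ST14 (216905_s_at) differences, poorly determined.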
